A study of Homo sapiens with 8 samples.

Results

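CAMKV, OPRL1, PDE1B, SYT7, KCTD12, GPRC5B and PDZRN3 are 7 genes best known from neurons and their synapses, followed here in newly made RNA of a human bone tumour cell line. They were picked by symbol from the 19414 coding genes in the deposited tables, because their reads were high in libraries labelled MYC O/E and low in WT. The difference between those groups therefore chose them and is described without a test. All 7 were found in each of the 8 libraries' tables, and all 7 passed the filter on low reads, which they could do through the MYC O/E libraries alone.

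The assay was TT-seq, in which cells are fed 4-thiouridine, a base analogue that enters RNA made during the pulse, so that recent transcription is read rather than the standing pool. The cells were U2OS, an osteosarcoma line. The 4 groups, of 2 libraries each, carried the genotype labels Zab + MYC O/E, MYC O/E, Zab and WT. By its name the first combines Zab with extra MYC, the second has extra MYC alone, the third has Zab alone and WT has neither. The labels give no construct, promoter or clone for either change. Zαβ is the usual name of the Z-DNA and Z-RNA binding domains of ADAR, an RNA-editing enzyme. No label says that the libraries of a group came from separate cultures, so the spread between them may be technical.

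At a synapse, calcium entering the nerve ending binds sensors of the synaptotagmin family, which trigger the fusion of transmitter vesicles. Calcium also acts through calmodulin on kinases and on the enzymes that break down cyclic nucleotides. Released peptides and GABA act on G-protein-coupled receptors, whose auxiliary subunits set the speed of the response, while scaffold proteins and ubiquitin ligases hold receptors in place or remove them. MYC is a transcription factor that binds near the start of many active genes.

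MYC and ADAR went against part of the labels, so groups are called by their labels throughout. An exchange of labels or files between groups is possible and was not tested, and it would change what each group's values stand for. MYC averaged 762 ± 14.2 CPM, the reads scaled to a common library size, in the libraries labelled Zab + MYC O/E, 6592 ± 20.2 in MYC O/E, 966 ± 69.5 in Zab and 764 ± 17.1 in WT (SD, n = 2 each). Only the libraries labelled MYC O/E had MYC far above WT, by 8.63-fold, and those labelled Zab + MYC O/E were at 0.998 times WT. MYC was counted on a transcript with 3716 bases of exon in both MYC O/E libraries and with 4510 in the others. The 8.63-fold thus compares different exon sets. ADAR averaged 32311 ± 41.8 CPM in Zab + MYC O/E, 455 ± 13.1 in MYC O/E, 543 ± 33.9 in Zab and 33906 ± 11.6 in WT. Over all genes the libraries labelled Zab + MYC O/E and WT differed by a chi-square of 2.71 to 2.81 per gene, against 1.99 to 2.05 within groups and 25.5 to 43.0 between other groups. By ADAR too the libraries labelled Zab + MYC O/E and WT stood together, and those labelled MYC O/E and Zab stood together. The 8 libraries held 1839960 to 4072059 reads over coding exons. Coding reads per 100 mapped tags averaged 13.5 ± 0.0423 in Zab + MYC O/E, 13.7 ± 0.139 in MYC O/E, 6.55 ± 0.154 in Zab and 13.1 ± 0.00291 in WT. Depth therefore also differed with the labels: both libraries labelled Zab had fewer coding reads than the other 6.

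To show what lies in front of these genes, the 250 bases before the first annotated start are given for 3 members and for KCTD12. The 3 are CAMKV, OPRL1 and PDE1B, with the largest folds or bounds between MYC O/E and WT. KCTD12 was called, as CAMKV was, in the fit of all 8 libraries described further on. Sequences are from RefSeq on GRCh38.p14, written 5′ to 3′ on the gene's strand, with the longest run of strictly alternating purines and pyrimidines in capitals, the first of them where runs tie. Such runs are the class of sequence that turns most readily into left-handed Z-DNA. The windows lie at chr3:49869907-49870156 on the minus strand for CAMKV, at chr20:64079832-64080081 on the plus strand for OPRL1, at chr12:54549351-54549600 on the plus strand for PDE1B, and at chr13:76886406-76886655 on the minus strand for KCTD12.
CAMKV: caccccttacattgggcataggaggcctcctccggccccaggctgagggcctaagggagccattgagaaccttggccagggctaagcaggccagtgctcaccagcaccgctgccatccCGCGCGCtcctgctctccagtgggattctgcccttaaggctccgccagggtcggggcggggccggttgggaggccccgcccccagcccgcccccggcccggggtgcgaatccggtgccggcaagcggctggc
OPRL1: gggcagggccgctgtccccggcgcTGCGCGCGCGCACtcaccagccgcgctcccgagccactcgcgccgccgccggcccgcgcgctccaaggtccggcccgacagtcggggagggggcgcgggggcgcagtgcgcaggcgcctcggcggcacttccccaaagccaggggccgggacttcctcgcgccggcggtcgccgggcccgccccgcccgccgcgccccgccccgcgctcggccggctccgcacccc
PDE1B: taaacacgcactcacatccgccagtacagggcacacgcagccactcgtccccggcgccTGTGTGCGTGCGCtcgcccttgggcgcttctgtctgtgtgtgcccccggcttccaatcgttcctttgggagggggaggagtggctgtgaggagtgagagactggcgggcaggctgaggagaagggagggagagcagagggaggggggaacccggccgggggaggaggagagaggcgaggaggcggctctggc
KCTD12: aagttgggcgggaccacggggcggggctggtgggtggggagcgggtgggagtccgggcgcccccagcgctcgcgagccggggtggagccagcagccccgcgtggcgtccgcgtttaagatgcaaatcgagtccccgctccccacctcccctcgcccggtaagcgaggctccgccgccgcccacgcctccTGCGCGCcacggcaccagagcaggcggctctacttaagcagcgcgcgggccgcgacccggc
The capitals run over 13 bases in both OPRL1 and PDE1B, a length that 4.5% of all 35116 windows of this size reach. They run over 7 bases in CAMKV and in KCTD12, which is the median over all windows. KCTD12 has 2 runs of that length, and its CGCGCG lies in the one left in lower case. PDZRN3 had a run of 12 bases in its first window, reached by 6.83% of windows, and GPRC5B one of 8 bases, reached by 41.5%. The 3 motifs searched, on both strands, were CACGTG, the site that MYC with its partner MAX prefers, CGCGCG, and TGTGTG with its complement CACACA. The first of these, CACGTG, was in none of the 6 first windows available and in 1 later window each of OPRL1 and PDZRN3, while 6.34% of all windows hold it. CGCGCG was in the first windows of CAMKV, OPRL1 and KCTD12, and 14.1% of all windows hold it. TGTGTG or CACACA was in the first window of PDE1B and in 1 later window each of OPRL1 and PDZRN3, and 14.3% of all windows hold it. No match overlapped a match to another motif. These matches describe the letters and show no binding or structure.

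Across the 4 groups the members had one shape. Their mean levels ran from 21.2 to 92.1 CPM in the libraries labelled MYC O/E and from 0 to 16 CPM in the other 3 groups. The ratios of mean CPM between MYC O/E and WT were 7.6 for PDZRN3 and 55.5 for CAMKV, with the others between, except that OPRL1, with 0 reads in WT, has only a lower bound of 41.6. For every member both MYC O/E libraries lay above all 6 other libraries. ADAR was 74.6 times lower in MYC O/E than in WT, so the levels of MYC and ADAR cannot be told apart in that comparison. In such bulk libraries, more transcription in each cell and more cells transcribing a gene cannot be told apart. In that comparison 44.1% of the 11985 genes tested were called in either direction at an adjusted p under 0.05, which is given as background, since the difference chose the members.

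CAMKV encodes a kinase-like protein that binds calmodulin, sits on vesicles and, in rodent neurons, is needed to keep dendritic spines. It lies at chr3:49895422-49907339 of hg19, on the minus strand. It had 6 and 9 reads in the libraries labelled Zab + MYC O/E, 280 and 320 in MYC O/E, 0 and 0 in Zab, and 4 and 4 in WT. These are 1.90 ± 0.479, 75.7 ± 4.84, 0 and 1.36 ± 0.0947 CPM in that order of groups (SD, n = 2). The step between the MYC O/E libraries and the rest dwarfed the spread within groups. The low groups held single-digit reads. The ratio of Zab + MYC O/E to WT was 1.39, with a 95% counting interval of 0.557 to 3.81, so that pair of groups cannot be ordered. The ratio of MYC O/E to WT was 55.5, with a 95% counting interval of 28.1 to 130, and that of MYC O/E to Zab was at least 91, taking 3 reads over the group as the limit that 0 reads allow. That limit is 0.832 CPM in Zab.

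PDE1B, a calmodulin-activated phosphodiesterase that breaks down cyclic AMP and cyclic GMP and is abundant in the striatum, lies at chr12:54943177-54973023 on the plus strand of hg19. Its reads were 6 and 2 in Zab + MYC O/E, 126 and 176 in MYC O/E, 2 and 2 in Zab, and 2 and 4 in WT. It averaged 1.03 ± 0.750 CPM in Zab + MYC O/E, 38.0 ± 7.77 in MYC O/E, 1.11 ± 0.0930 in Zab and 1.04 ± 0.553 in WT. The 3 low groups overlapped one another and held single-digit reads, so nothing finer than their separation from MYC O/E can be read from them. The ratio of MYC O/E to WT was 36.6 (counting interval 17 to 103). The transcript counted had 3162 bases of exon in both MYC O/E libraries and in WT replicate 2, and 2793 in WT replicate 1.

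SYT7 is the synaptotagmin with high calcium affinity, used in slow and facilitated release and in the fusion of lysosomes with the cell surface. It lies at chr11:61281186-61348548 on the minus strand of hg19. It had 29 and 18 reads in Zab + MYC O/E, 145 and 153 in MYC O/E, 13 and 12 in Zab, and 11 and 9 in WT, or 6.0 ± 2.16, 37.6 ± 0.283, 6.97 ± 0.975 and 3.39 ± 0.245 CPM. SYT7 was thus transcribed at a low level in every library and was not silent in WT. Both Zab + MYC O/E libraries and both Zab libraries lay above the WT pair, and overlapped each other. MYC O/E over WT was 11.1-fold (counting interval 7.04 to 18.4) and MYC O/E over Zab 5.4-fold.

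OPRL1 encodes the receptor for the neuropeptide nociceptin, which couples to inhibitory G proteins, and lies at chr20:62711435-62731996 on the plus strand of hg19. Its reads were 0 and 3 in Zab + MYC O/E, 78 and 90 in MYC O/E, 0 and 0 in Zab, and 0 and 0 in WT. It was the one member without a read in either WT library and averaged 21.2 ± 1.5 CPM in MYC O/E. The 3 low groups cannot be ordered, and 0 reads allow up to 0.832 CPM in Zab and 0.510 CPM in WT. The ratio to WT was at least 41.6 and that to Zab at least 25.5.

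KCTD12 is an auxiliary subunit of GABA-B receptors that makes their response desensitise quickly. It lies at chr13:77454310-77460540 on the minus strand of hg19, with a single counted transcript. It had the most reads of the members outside MYC O/E: 38 and 38 in Zab + MYC O/E, 338 and 392 in MYC O/E, 24 and 34 in Zab, and 36 and 26 in WT. Its means were 9.65 ± 0.303 CPM in Zab + MYC O/E, 92.1 ± 6.84 in MYC O/E, 16 ± 2.59 in Zab and 10.5 ± 1.68 in WT. On this scale Zab + MYC O/E overlapped WT, while Zab lay above both without overlap. In the deposited values these groups all overlapped, at 8.13 and 7.74 in Zab + MYC O/E, 6.22 and 8.05 in Zab, and 7.86 and 6.37 in WT. MYC O/E over WT was 8.79-fold (counting interval 6.74 to 11.5), the narrowest interval among the members.

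GPRC5B, an orphan receptor of class C induced by retinoic acid and found in the brain, lies at chr16:19868013-19896956 on the minus strand of hg19. Its reads were 12 and 2 in Zab + MYC O/E, 89 and 86 in MYC O/E, 6 and 5 in Zab, and 6 and 8 in WT, or 1.81 ± 1.85, 22.1 ± 1.21, 3.08 ± 0.649 and 2.40 ± 0.648 CPM. The 3 low groups overlapped, and the Zab + MYC O/E libraries differed from each other by more than their mean. MYC O/E over WT was 9.21-fold (counting interval 5.39 to 17.3). The tables counted a shorter transcript of GPRC5B in both WT libraries, with 3167 bases of exon, than the one of 5137 bases counted in the other 6, so its fold to WT compares different exon sets.

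PDZRN3 is a ubiquitin ligase with PDZ domains that acts on the kinase MuSK at the nerve-muscle synapse, and lies at chr3:73431581-73674092 on the minus strand of hg19. It had 8 and 19 reads in Zab + MYC O/E, 136 and 154 in MYC O/E, 6 and 2 in Zab, and 22 and 7 in WT. It averaged 3.40 ± 1.87 CPM in Zab + MYC O/E, 36.6 ± 2.10 in MYC O/E, 2.29 ± 1.76 in Zab and 4.82 ± 3.27 in WT. Its WT libraries were the least alike of any member's, and its 3 low groups overlapped. The fitted log2 change of MYC O/E over WT was 2.82 with both WT libraries, 2.21 without WT replicate 2 and 3.44 without WT replicate 1. The transcript counted also varied, with 3568 bases of exon in both Zab + MYC O/E libraries and 4232 in both MYC O/E and both WT libraries.

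**Figure D1:**
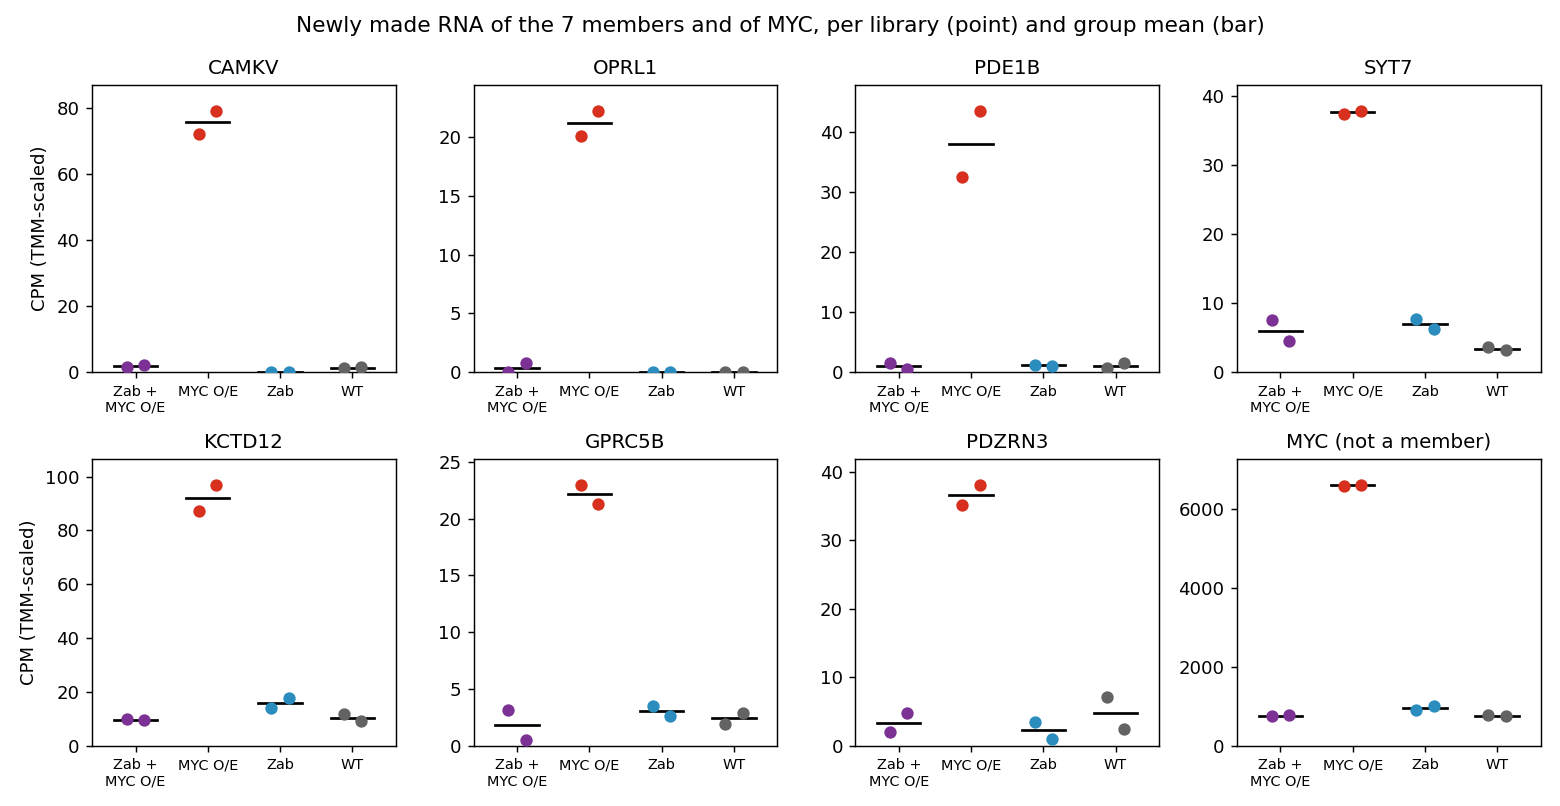
CPM of each member, and of MYC for comparison, in each of the 8 libraries (points) with the group mean (bar), on linear axes that start at 0 and differ between panels. In every panel the 2 MYC O/E libraries stand above the other 6, and the Zab + MYC O/E libraries lie among the low ones, for MYC as for the members.

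Per kilobase of exon, which allows genes to be set side by side, the members' level in MYC O/E ran from CAMKV at 25.4 ± 1.63 CPM per kb through KCTD12 at 14.8 ± 1.1 and PDE1B at 12 ± 2.46 to PDZRN3 at 8.65 ± 0.496. OPRL1 followed at 6.27 ± 0.480, SYT7 at 5.22 ± 0.0393 and GPRC5B at 4.31 ± 0.235. KCTD12 and PDE1B did not differ beyond their spread, whereas CAMKV stood clear of the rest. Among the 14202 genes with reads in MYC O/E, CAMKV's level lay above 79.2% and GPRC5B's above 42.7%. In WT the same measure put KCTD12 above 26.9% of the 14404 genes with reads and CAMKV above 14.6%. The members were thus mid-range genes in MYC O/E and among the low ones in WT.

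The libraries labelled Zab + MYC O/E were low for all 7 members. Their mean levels were lower than in MYC O/E by 39.9 times for CAMKV, 37 times for PDE1B, 12.3 times for GPRC5B, 10.8 times for PDZRN3, 9.55 times for KCTD12 and 6.28 times for SYT7. For OPRL1, with 3 reads against 168, the level was 56.9 times lower, with a counting interval of 18.8 to 273. No member's Zab + MYC O/E libraries overlapped the MYC O/E pair. Since both comparisons use the MYC O/E libraries, and 44.6% of all genes were called between these groups, this is a description and adds no separate test. MYC itself was 8.65 times lower in Zab + MYC O/E than in MYC O/E, and ADAR was 71.1 times higher. Between these groups the Zab label and the levels of MYC and ADAR therefore cannot be told apart. ADAR averaged 455 ± 13.1 CPM in MYC O/E and 543 ± 33.9 in Zab, and its part in the members' level was not tested.

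Between the libraries labelled Zab and WT, which also share WT with the choice of members, limma called 49.6% of all genes, 22.5% up and 27.1% down. The members' values are a description. SYT7 was at 6.97 ± 0.975 CPM in Zab and 3.39 ± 0.245 in WT, a log2 change of 0.86 ± 0.35 (SE). KCTD12 had a log2 change of 0.56 ± 0.25. CAMKV had 0 reads in Zab and 8 in WT. Its WT mean was 1.64 times the level that 3 reads would give in Zab, a ratio that leaves out the counting error of the WT reads. When the deposited values were used as they stand, the log2 change was 0.337 for SYT7 and 0.000942 for KCTD12. SYT7 was counted on 6381 bases of exon in WT replicate 2, and on 7205 in WT replicate 1 and both Zab libraries. For PDZRN3, whose groups overlapped, the log2 change was -0.81 ± 0.46.

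The 1 comparison whose groups were not used to choose the members is Zab + MYC O/E over Zab, and there the members did not move as a group. Its SE and p still rest in part on the MYC O/E and WT libraries, because all 8 libraries shared one estimate of spread. ADAR was 59.5 times higher in Zab + MYC O/E than in Zab, and MYC had a log2 change of -0.34 ± 0.04 (limma, adjusted p = 8.28e-08). The part of either in the members' level was not tested. In the fit of all 8 libraries limma called CAMKV up and KCTD12 down, with Benjamini-Hochberg adjustment over 11985 genes, and did not call the other 5. Of all genes 49.5% were called, 26.8% up and 22.6% down. CAMKV, OPRL1, PDE1B, GPRC5B and PDZRN3 entered this test only through other groups' libraries. With the compared groups alone, an alternative chosen after seeing the data, they fell below the read filter. Their calls and p values in this comparison are therefore a description only. SYT7 and KCTD12 stayed in, and neither was called, at limma adjusted p of 0.695 and 0.0932. CAMKV had 15 reads in Zab + MYC O/E and 0 in Zab, with a log2 change of 1.52 ± 0.45 (limma, adjusted p = 0.0063). Its Zab + MYC O/E mean was 2.28 times the level that 3 reads would give in Zab, leaving out the counting error of the 15 reads. Without Zab + MYC O/E replicate 2 its adjusted p was 0.066. KCTD12 averaged 9.65 ± 0.303 CPM in Zab + MYC O/E and 16 ± 2.59 in Zab, a log2 change of -0.67 ± 0.25 (adjusted p = 0.0276). That call was lost with library totals as the scale and with any of 5 libraries left out, namely either Zab + MYC O/E library, either MYC O/E library or Zab replicate 2, at adjusted p of 0.0579 to 0.123. Its sign turned to a log2 change of 0.15 on the deposited scale.

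PDE1B had a log2 change of -0.11 in Zab + MYC O/E over Zab, with a 95% interval of -1.11 to 0.89 (limma, adjusted p = 0.868). SYT7 had -0.22 with an interval of -0.94 to 0.50 (limma, adjusted p = 0.63). OPRL1 had 0.40 with an interval of -0.81 to 1.61 (limma, adjusted p = 0.597). GPRC5B had -0.71 with an interval of -1.69 to 0.28 (limma, adjusted p = 0.228), and a log2 change of -1.43 without Zab + MYC O/E replicate 1. PDZRN3 had 0.46 with an interval of -0.49 to 1.41 (limma, adjusted p = 0.428). With 2 libraries a group and reads this few, changes inside these intervals could not be told from none on the log2(CPM + 1) scale. That scale understates changes of low genes, so the intervals do not bound the fold. On recovered reads edgeR gave log2 changes of 3.4 for OPRL1 and 5.61 for CAMKV, both with 0 reads in Zab. The log2 change in Zab + MYC O/E over Zab differed from that in MYC O/E over WT for 53.3% of all genes in limma. That difference was not tested for the members, since 1 of the comparisons chose them.

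**Figure D2:**
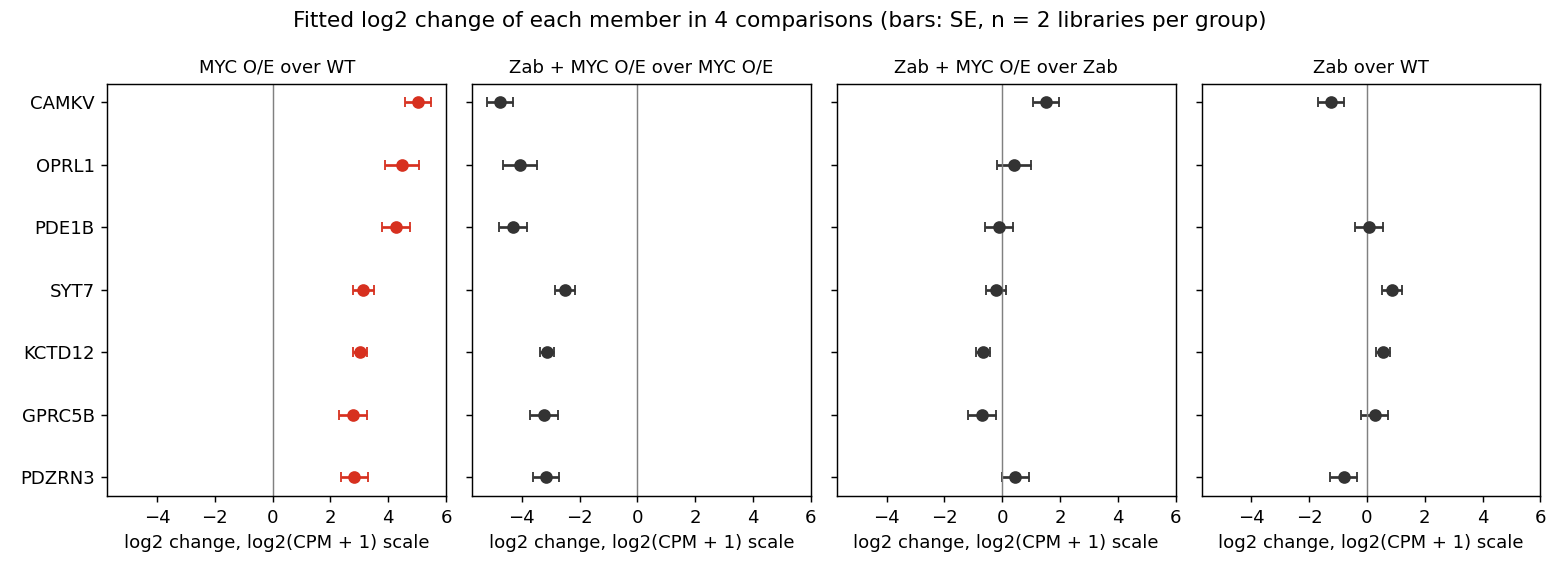
Fitted log2 change, on the log2(CPM + 1) scale, of each member in 4 comparisons (points, with bars of 1 SE, n = 2 libraries per group). All points lie right of 0 in MYC O/E over WT and left of 0 in Zab + MYC O/E over MYC O/E, whereas in Zab + MYC O/E over Zab they lie on both sides, from 1.52 for CAMKV to -0.71 for GPRC5B. OPRL1 has no point in Zab over WT because it had 0 reads in both groups.

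The members' partners and relatives were followed in 11 lists of synaptic genes with 283 genes, members left out, of which 174 had enough reads to be tested. In MYC O/E over WT, 30 of the 174 rose and 40 fell (limma, adjusted p under 0.05). These are 17.2% and 23%, beside 22.2% and 21.9% of all genes tested. Their median log2 change was -0.11, against -0.01 over all genes. Of the list genes' calls 42.9% were upward, and 72.2% on the deposited scale, where the median of all genes moved to 0.47. On that scale 70 list genes were up and 27 down, with a median of 0.33, so the direction of the list genes as a class differed between scales.

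By role, calcium and calmodulin came first. Of the 15 calmodulin-kinase list genes tested, 3 rose and 3 fell. CAMKK1, a kinase that activates other calmodulin kinases, averaged 14.9 ± 1.01 CPM in Zab + MYC O/E, 54.5 ± 1.48 in MYC O/E, 25.4 ± 9.96 in Zab and 12 ± 1.79 in WT, and its log2 change in MYC O/E over WT was 2.10 ± 0.26 (limma, adjusted p = 1.19e-07). CALM3, one of the calmodulin genes, fell by 0.76 on the log2 scale. Of the 12 phosphodiesterases tested besides PDE1B, 2 rose and 3 fell. PDE1C, the close relative of PDE1B, averaged 2.17 ± 1.67 CPM in MYC O/E and 14.5 ± 0.765 in WT, the opposite direction to PDE1B, with a log2 change of -2.39 ± 0.48 (limma, adjusted p = 0.000183).

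For release of vesicles, 2 of 15 synaptotagmins and relatives rose and 5 fell. SYT2, a fast calcium sensor, averaged 25.2 ± 3.80 CPM in MYC O/E and 3.59 ± 0.490 in WT, a log2 change of 2.51 ± 0.44 (limma, adjusted p = 3.7e-05), in the direction of SYT7. SYTL3, a synaptotagmin-like protein, fell by 2.38 on the log2 scale. Of 34 other genes of vesicle release 4 rose and 11 fell. SYP, the vesicle protein synaptophysin, was at 0.764 ± 0.380 CPM in MYC O/E and 17.1 ± 3.11 in WT, and PCLO, a scaffold of the release site, at 84.3 ± 6.36 and 235 ± 14.4 CPM in the same groups. On this scale the release machinery around SYT7 had more genes down than up.

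Among receptors and their regulators, 2 of 11 tested genes of the opioid and neuropeptide list rose and 4 fell. RGS16, which shortens G-protein signals, rose to 94.7 ± 1.40 CPM in MYC O/E, against 19.1 ± 1.79 in WT, and RGS2 of the same family fell to 3.16 ± 0.0825 CPM in MYC O/E, against 29.2 ± 2.75 in WT. Of 21 KCTD and GABA-B genes 2 rose and 4 fell, with KCTD20 up by 1.17 ± 0.11 on the log2 scale. Of 4 class C receptors tested 1 rose and 1 fell, and GPRC5A, the relative of GPRC5B, fell by 1.76 on the log2 scale. Of 15 receptor channels 4 rose and 1 fell, led by GABRA5, a GABA-A receptor subunit, at 56.4 ± 2.43 CPM in MYC O/E and 7.04 ± 2.88 in WT.

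Of 20 scaffold genes, the list that holds the relatives and partners of PDZRN3, 4 rose and 4 fell. LRP4, which binds the nerve-derived signal agrin together with MuSK, averaged 48.6 ± 1.20 CPM in MYC O/E and 10.7 ± 0.459 in WT, a log2 change of 2.09 ± 0.25 (limma, adjusted p = 9.42e-08). SHANK3, a scaffold of the receiving side, had a log2 change of 1.39 ± 0.17. Of 16 adhesion genes 3 rose and 3 fell, with CADM3 down by the most, at 4.59 ± 3.0 CPM in MYC O/E and 51.1 ± 3.07 in WT. Of the 11 genes for REST, the repressor of neuronal genes outside neurons, and its partners, 3 rose and 1 fell. The one that fell, HDAC1, had a log2 change of -0.45 that turned to 0.05 on the deposited scale.

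**Figure D3:**
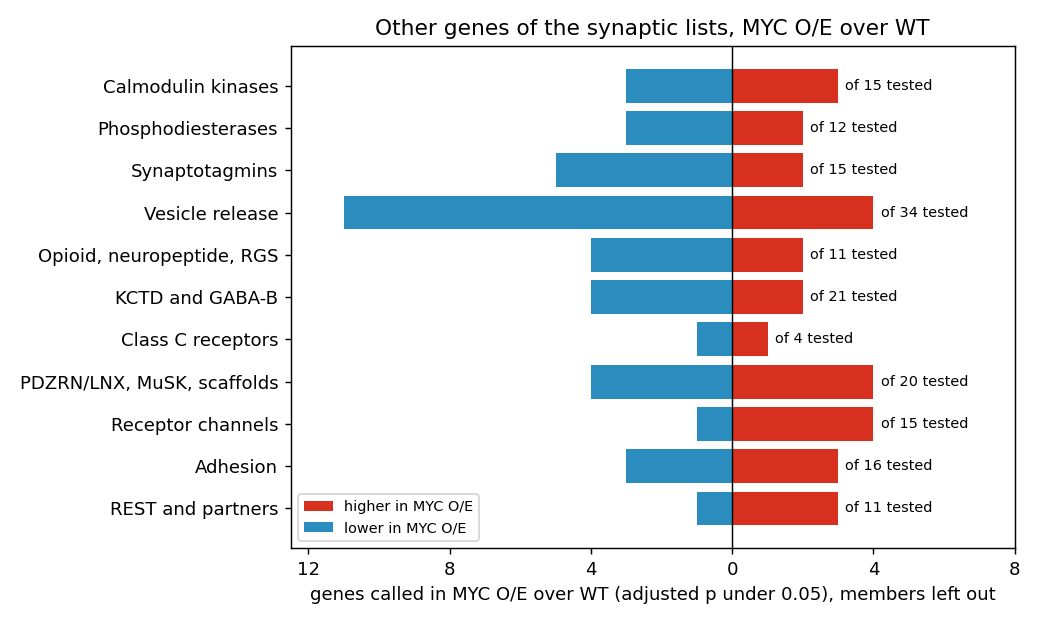
Number of genes that rose (right of 0) or fell (left of 0) in MYC O/E over WT in each of the 11 synaptic lists, with members left out and the number tested beside each bar. Vesicle release has 11 genes down and 4 up of 34 tested, and the synaptotagmin list, with a like share down, has 5 down and 2 up of 15.

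In Zab + MYC O/E over Zab, 34 of the 174 list genes rose and 33 fell. Their log2 changes had a median of 0.03, beside 0.06 over all genes. The upward share of these calls was 50.7%, and it was 69.7% with library totals and 100% on the deposited scale. The direction of the list genes as a class thus differed between scales in this comparison.

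**Figure D4:**
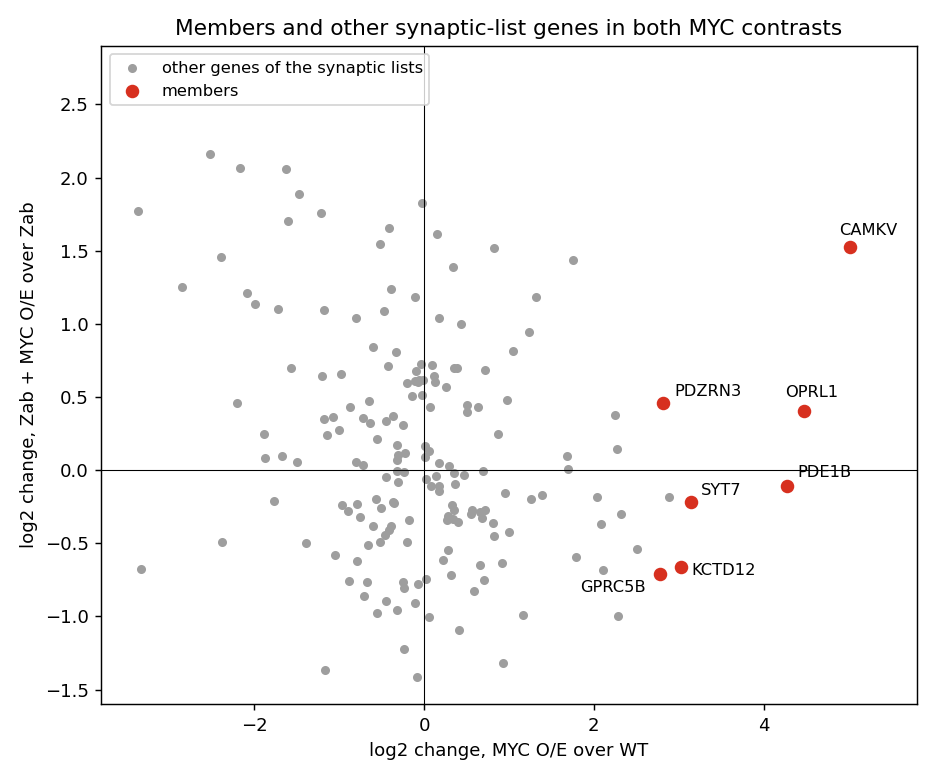
Log2 change in MYC O/E over WT (x axis) against log2 change in Zab + MYC O/E over Zab (y axis), on the log2(CPM + 1) scale, for the members (red) and the 174 other synaptic-list genes tested (grey). The members lie at the far right, from 2.78 for GPRC5B to 5.02 for CAMKV on the x axis, and spread around 0 on the y axis. Their place on the x axis is how they were chosen.

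Markers of neurons did not follow the members. The summed level of 19 neuronal markers was 627 to 647 CPM in the Zab + MYC O/E libraries, 409 to 445 in MYC O/E, 878 to 923 in Zab and 537 to 603 in WT. On this scale it was lowest in MYC O/E. The sums were not taken on the deposited scale, where the median of all genes in MYC O/E over WT moved to 0.47, so their order may depend on the scale. NEFH, ELAVL3, INA, SCG3 and DCX were at 0 reads in MYC O/E and in WT, as were NEFM in MYC O/E and ELAVL4 in WT. Most of the sum came from VGF, a secreted neuropeptide precursor. VGF averaged 434 ± 16.1 CPM in Zab + MYC O/E, 223 ± 22.3 in MYC O/E, 669 ± 21.3 in Zab and 344 ± 28 in WT. The sums thus follow the order of VGF, and were not taken without it. Of the 9 neuronal markers tested, VGF and SYP fell in MYC O/E over WT and the other 7 did not pass. The VGF change was -0.13 with a limma adjusted p of 0.154 on the deposited scale.

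Glial markers summed to 20.2 to 24.3 CPM in Zab + MYC O/E, 40.8 to 42.5 in MYC O/E, 14.7 to 33 in Zab and 22.5 to 24.6 in WT, nearly all of it OLIG2. GFAP, S100B, AQP4 and MBP had 0 reads in MYC O/E, as GFAP and AQP4 did in WT. The 1 glial marker tested, OLIG2, rose by 1.08 ± 0.28 on the log2 scale, and its part in the members' level was not tested. Bone and mesenchymal markers, those of U2OS, summed to 3500 to 3590 CPM in Zab + MYC O/E, 2470 to 2500 in MYC O/E, 4290 to 4540 in Zab and 3700 to 3830 in WT. VIM was the highest of them in all groups, with TWIST1 and SP7 at 0 in all. Of the 8 tested, 1 rose and 4 fell in MYC O/E over WT, with FN1 at -2.75 ± 0.08. Of 4 epithelial markers tested KRT8 and KRT18 fell, KRT18 turning to a log2 change of 0.09 on the deposited scale. Blood markers summed to at most 2.08 CPM in any library and could not be tested.

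The genes next to the members on the chromosome mostly stayed low or near WT level. RGS19 lies 0.118 kb from OPRL1 on the other strand and averaged 10.6 CPM in Zab + MYC O/E, 11.4 in MYC O/E, 12.6 in Zab and 14.8 in WT, with a log2 change in MYC O/E over WT of -0.36 ± 0.31 (limma, adjusted p = 0.369) that turned to 0.11 on the deposited scale. TRAIP, 1.425 kb from CAMKV, had -0.04 ± 0.25 (limma, adjusted p = 0.923), and 0.34 without WT replicate 2. IQCK, whose span overlaps GPRC5B on the other strand, had -0.33 ± 0.42 (limma, adjusted p = 0.556). NCKAP1L and PPP1R1A beside PDE1B, LRRC10B beside SYT7 and LKAAEAR1 beside OPRL1 had 0 reads in the MYC O/E libraries. DAGLA, 99.315 kb from SYT7, had 0.39 ± 0.16 (limma, adjusted p = 0.0438), and 0.0546 to 0.207 without any one of the MYC O/E or WT libraries. Closeness to a member thus went with no change of like size among the neighbours tested.

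The genes whose levels over the 8 libraries were most like the members' mean profile were LGI2 with a Pearson r of 0.998, MYC with 0.992, TAL1 with 0.992, PPARGC1B with 0.989 and RGS16 with 0.988, among 2156 genes with a wide range. LGI2, a secreted protein of a family known from epilepsy genes, had 6.56 CPM in MYC O/E and was at 0 in the other 3 groups. The transcription factor TAL1 averaged 1.02 CPM in Zab + MYC O/E, 10.1 in MYC O/E, 1.11 in Zab and 1.01 in WT. ZNF704, DAAM2, ARRB1, WNK2 and SFRP1 completed the 10 most alike, with r from 0.987 to 0.977. The 8 points form a pair of high libraries and 6 low ones, so each r restates that a gene is high in MYC O/E, and all genes share the libraries' depth.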

How the data were processed

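TT-seq libraries from 8 U2OS samples were compared as labelled, in 4 groups of 2. Per the submitters' processing notes, the builds hg19 and dm6 were used, with STAR, bedtools 2.29.2, SAMtools 1.11 and Trim Galore 0.6.6, whose roles are not stated. Per the file headers, the authors counted exons of hg19 RefSeq genes with HOMER's analyzeRepeats, asking for raw tags, on the opposite strand and with 1 transcript kept per gene, chosen library by library. It was the same in all 8 for 10453 of 19414 genes and, of the members, only for KCTD12. Folds of the other members can therefore compare different exon sets.

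The deposited values are a scaled signal: each was a whole multiple of a step of 0.204 to 0.259, and no source says what sets that step. Dividing by it gave whole reads, within 0.02 reads, for 99.96% to 99.99% of values. Of values from 1 to 20 reads, 77.2% to 82.7% were even, so reads are not independent and the counting intervals (95%, counting error only) are too narrow. Ratios given as at least a value take 3 reads for 0. They leave out the counting error of the higher group, so they are not strict bounds.

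TMM factors (edgeR 4.0.16) scaled the deposited values to CPM. log2(CPM + 1) was tested in limma 3.58.1 under R 4.3.3, with a trended prior, for 11985 genes kept by filterByExpr (minimum 10 reads), in one fit of all 8 libraries with 4 residual degrees of freedom. This scale understates changes of low genes. Called means a Benjamini-Hochberg adjusted p under 0.05. An exact permutation of 2 against 2 libraries gives no p below 0.333. Folds are ratios of mean CPM.

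The members and gene lists (11 synaptic, 5 of cell type markers) were chosen with earlier results of these data known. Genes named were all members, MYC and ADAR as label checks, from each list the 3 non-members with the smallest adjusted p among those called in MYC O/E over WT with at least 2 CPM in either group, the nearest gene on each side of a member, and the 10 genes most like them. The text gives a selection of these.

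Alternatives were library totals, the deposited scale, a pseudocount of 0.25, no filter, a mean of at least 1 CPM, edgeR and DESeq2 1.42.0 on recovered reads, a replicate block, each library left out, the WT and Zab + MYC O/E pairs as 1 sample each, and, chosen after seeing the data, the compared groups alone. On recovered reads edgeR called 2912 genes up and 2864 down in MYC O/E over WT. The fit was checked on simulated data. Promoter windows were available for 6 members. Each holds the 250 bases before an annotated start.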

Additional observations from a re-analysis of the deposited data

Results flagged for a closer look

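KCTD12 lay on opposite sides in the 2 comparisons that bear the MYC label. Both MYC O/E libraries lay above WT, while both Zab + MYC O/E libraries lay below Zab, with a log2 change of -0.665 in Zab + MYC O/E over Zab. On the deposited scale that change was 0.15, and its limma adjusted p was 0.117 when scaled by library totals, so neither its sign nor its call held under all scales. The comparison of MYC O/E with WT is the one that chose KCTD12. The difference between the comparisons was not tested for any member, because one of them chose the members.

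Of 38 other named genes, 29 differed between Zab + MYC O/E over Zab and MYC O/E over WT (limma, the first log2 change minus the second, adjusted p under 0.05), beside 53.3% of all genes tested. The list genes were named for a small p in MYC O/E over WT, so their difference is not independent of that choice. The libraries labelled Zab + MYC O/E had MYC at the level of WT, so Zab + MYC O/E over Zab bears the MYC label without a rise in MYC. What lies behind the differences was not tested.

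For 20 genes the 2 log2 changes had opposite signs, and for 10 of these the change in Zab + MYC O/E over Zab was itself called. Signs of small changes depend on the scale: the median of all genes in Zab + MYC O/E over Zab was 0.06, and 0.888 on the deposited scale. Those with a positive log2 change in MYC O/E over WT and a negative one in Zab + MYC O/E over Zab had differences of -3.07 for GABRA5, -3.05 for SYT2, -2.79 for CAMKK1, -2.45 for LRP4, -2.16 for KCTD20, -1.56 for SHANK3, -1.55 for PTPRF, -1.30 for EHMT2, -1.17 for PDE4A and -0.67 for KDM1A. Those with the reverse signs had differences of 5.14 for SYP, 4.11 for RGS2, 3.85 for PDE1C, 3.36 for PCLO, 3.30 for RGS4, 2.66 for SYTL5, 2.26 for CHRNA9, 1.77 for CADM4, 1.38 for RAB3B and 1.08 for PDE2A. The other 9 had the same sign in both, with differences of 2.66 for CADM3, 1.89 for SYTL3, 1.55 for GPRC5A, 0.61 for DLGAP4, 0.47 for TNFAIP1, 0.44 for CALM3, 0.40 for HDAC1, -1.87 for RGS16 and 0.94 for PPP4R2. PPP4R2 is the nearest gene on one side of PDZRN3, at a distance of 313.229 kb.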

How the results depend on the processing

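All 7 members stayed higher in MYC O/E than in WT under each of 18 alternatives, with log2 changes between 2.21 for PDZRN3 and 9.07 for OPRL1, and all stayed lower in Zab + MYC O/E than in MYC O/E.

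In Zab + MYC O/E over Zab, 1 member was called up (0 to 1 with a library left out, 2 on the deposited scale, 0 with the compared groups alone) and 1 down (0 to 1 with a library left out, and 0 with library totals, on the deposited scale, with pairs as 1 sample and with the compared groups alone). With the compared groups alone CAMKV and 4 other members fell below the read filter. For that comparison edgeR and DESeq2 each called 1 up and 1 down. Changes of sign there were, on the deposited scale, 0.306 for PDE1B, 0.53 for SYT7 and 0.15 for KCTD12; without Zab + MYC O/E replicate 2, 0.275 for PDE1B, 0.102 for SYT7 and 0.022 for GPRC5B; and without Zab replicate 2, -0.114 for PDZRN3. With a library left out the log2 changes ran from -0.495 to 0.275 for PDE1B, -0.538 to 0.102 for SYT7, -1.43 to 0.022 for GPRC5B and -0.114 to 1.04 for PDZRN3. In Zab over WT, PDE1B turned to -0.0111 with library totals, -0.206 on the deposited scale and -0.198 without WT replicate 1 (0.357 without WT replicate 2), and GPRC5B to -0.164 on the deposited scale.

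The deposited scale moved the median of all genes to 0.47 (MYC O/E over WT), 0.888 (Zab + MYC O/E over Zab), -0.633 (Zab over WT) and -0.186 (Zab + MYC O/E over MYC O/E). On it 5838 genes were up and 1149 down in MYC O/E over WT (main 2657 and 2623), 8807 and 237 in Zab + MYC O/E over Zab (main 3217 and 2711) and 575 and 6882 in Zab over WT (main 2696 and 3243). Synaptic-list genes up became 70 in MYC O/E over WT, and 109, with 0 down, in Zab + MYC O/E over Zab. It turned MYC O/E over WT to 0.0495 for HDAC1, 0.0774 for VIM, 0.0858 for KRT18, 0.445 for TRAIP, 0.108 for RGS19 and 0.0851 for IQCK. TRAIP was 0.336 without WT replicate 2 and -0.391 without WT replicate 1. Library totals left 1742 genes and 20 list genes down in Zab + MYC O/E over Zab. With pairs as 1 sample each, a fit with fewer samples, calls were 1581 down in MYC O/E over WT, 2027 up in Zab + MYC O/E over Zab (list genes 20 up and 21 down), 2030 down in Zab over WT and 1591 up in Zab + MYC O/E over MYC O/E (main 2642). The causes were not tested.

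The replicate numbers did not pair the samples: same-numbered libraries' deviations correlated at -0.0438 to 0.00173. The replicate block left 1 member up and 1 down, with limma adjusted p of 0.00752 for CAMKV and 0.0319 for KCTD12, and 2666 genes up and 2621 down in MYC O/E over WT.

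Outside MYC O/E the members had 0 to 38 reads a library, so differences among the low groups were mostly not detectable at this depth.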
